A study of Mus musculus with 16 samples.

Results

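The mammalian circadian clock genes are described here in mouse cerebral cortex. The 10 genes Per1, Per2, Per3, Cry1, Cry2, Arntl, Clock, Npas2, Nr1d1 and Dbp were chosen by symbol from the 48709 genes of the count table, and each was found once and passed the filter on low counts in every test. C57BL/6 mice gave 4 groups of 4 biological replicates, 16 libraries in all. Synaptosomes (SYN), the pinched-off nerve endings that are enriched from homogenised tissue by fractionation, were taken at 3 weeks, 5 months and 19 months of age. Total homogenate (TH), kept back before that enrichment, was sequenced at 5 months only. No group carried a transgene or a treatment, so the groups differ by age or by fraction alone as far as the labels say. The time of day at which the tissue was taken, the sex of the animals and any pooling are not stated in the labels.

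In the molecular clock, a pair of partner proteins, BMAL1 (the product of Arntl) with CLOCK or its paralogue NPAS2, binds E-box DNA and activates the Per and Cry genes. The PER and CRY proteins then enter the nucleus and block their own activators, which closes a loop of about a day. Rev-erb alpha, the product of Nr1d1, represses Arntl in a second loop, and DBP is an output activator that binds D-box DNA and also drives Per genes. In the cerebral cortex many of these transcripts rise and fall over the day, and Per1 is also an early target of neuronal activity and of glucocorticoids.

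Library depth ran from 10.6 to 21.7 megacounts. Mitochondrial ribosomal RNA took 17.6 to 22.0% of counts in TH and 32.9 to 52.3% in SYN. The nuclear RNA Malat1 was at 15579 to 18357 counts per megacount of the library (CPM) in TH and at 493 to 4796 CPM in SYN. 2 libraries stood apart, 5 months SYN replicate 4 with the highest Malat1 level of any SYN library and 19 months SYN replicate 1 with 52.3% mitochondrial ribosomal RNA against 32.9 to 33.6% in its group, and the 8 calls on clock genes given here were the same without both. The latter library also held Xist, an RNA made from the inactive X chromosome, at 8.32 CPM against 0 to 1.12 CPM in the other 15 libraries. Against TH, all 12 endothelial and mural markers and all 9 nuclear RNAs were lower in SYN, with median log2 fold changes of -2.78 and -2.65. The endothelial gene Pecam1 was at 1.12 ± 0.499 CPM in 5 months SYN and 11.4 ± 2.30 CPM in TH (SD, n = 4). Of the 12 neuron and synapse markers, 8 were higher and 2 lower, with Camk2a at 4643 ± 430 against 1358 ± 104 CPM (SD, n = 4). Astrocyte markers (9 of 10) and microglia markers (10 of 10) were also higher in SYN, with median log2 fold changes of 1.14 and 1.27. SYN libraries thus held RNA known from several cell types, and in bulk samples fewer cells of a type and less RNA per cell cannot be told apart.

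The promoters of Per1, Per3, Cry1 and Arntl are printed because Per1 and Per3 were higher at 5 months than at 3 weeks, Cry1 holds the same E-box letters as Per1 without passing a test, and Arntl encodes the partner that binds them. They are the 250 bases before the RefSeq start on GRCm38.p6, read 5′ to 3′ on the gene's strand, with matches to 3 motifs in capitals: the E-box CACGTG, the related E-prime box, spelled CACGTT or on the opposite strand AACGTG, and the D-box TTATGTAA.

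Per1, chr11:69098699-69098948, plus strand: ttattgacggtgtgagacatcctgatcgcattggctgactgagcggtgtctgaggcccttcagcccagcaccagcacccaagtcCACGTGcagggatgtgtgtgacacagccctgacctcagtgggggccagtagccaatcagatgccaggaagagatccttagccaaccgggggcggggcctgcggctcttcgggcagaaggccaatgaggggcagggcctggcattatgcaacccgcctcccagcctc

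Per3, chr4:151044666-151044915, minus strand: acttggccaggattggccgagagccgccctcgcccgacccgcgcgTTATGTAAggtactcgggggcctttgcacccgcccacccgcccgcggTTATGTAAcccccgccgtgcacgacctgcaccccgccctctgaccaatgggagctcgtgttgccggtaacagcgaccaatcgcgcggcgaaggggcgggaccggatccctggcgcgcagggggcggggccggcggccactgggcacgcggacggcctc

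Cry1, chr10:85185055-85185304, minus strand: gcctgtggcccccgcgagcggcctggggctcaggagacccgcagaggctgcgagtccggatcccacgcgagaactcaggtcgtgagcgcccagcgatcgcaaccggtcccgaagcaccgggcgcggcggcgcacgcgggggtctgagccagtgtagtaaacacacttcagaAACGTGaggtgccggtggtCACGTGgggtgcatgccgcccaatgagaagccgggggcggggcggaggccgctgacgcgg

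Arntl, chr7:113207215-113207464, plus strand: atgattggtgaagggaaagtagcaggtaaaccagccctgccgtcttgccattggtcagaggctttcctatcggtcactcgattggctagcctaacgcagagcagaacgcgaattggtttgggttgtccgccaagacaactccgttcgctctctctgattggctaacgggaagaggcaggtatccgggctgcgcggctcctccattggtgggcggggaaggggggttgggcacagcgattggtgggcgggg

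The Per1 stretch printed held 1 E-box, which begins 166 bases before the start, and Cry1 held 1 E-box at 60 bases and 1 E-prime box at 79 bases before it. The other promoter entry of Per1, chr11:69099902-69100151, held no match. Per3 held 2 D-boxes, at 205 and 158 bases before its start. The Arntl stretch printed held none of the letters searched. Over both strands, and counting a short stretch after the start as well, CACGTG occurred in 7.15%, CACGTT in 4.68% and TTATGTAA in 0.938% of the 32851 RefSeq promoters. The E-box and the E-prime box differ in their last letter, so they cannot match at the same place on the same strand. Cry2 and Nr1d1 each held an E-prime box, at 166 and 28 bases before the start. The ROR and REV-ERB sites, searched as TAGGTCA and as TGGGTCA, occurred in 2.61% and 3.98% of promoters, and the cAMP response element TGACGTCA in 1.79%. Of the clock genes only Arntl held 1 of these 3, TAGGTCA in its other promoter, 30 bases after the start. No match was found in Clock, Npas2 or Dbp. Of the 10 genes, all but Per2, 9 in number, had an entry in the promoter table. A match is a run of letters and shows no binding.

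Scaled to exonic length as CPM per kilobase (RPKM), the 10 genes fell within one order of magnitude. In 5 months SYN the mean level was highest for Per1 at 12.2 RPKM, followed by Npas2 at 11.7, Nr1d1 at 10.3 and Cry2 at 9.67 RPKM. Library values of these neighbours overlapped, so their order is not resolved. Dbp at 7.60 and Clock at 6.79 RPKM formed the next step, below every library value of Cry2. Per2 at 3.66, Cry1 at 3.05, Per3 at 2.57 and Arntl at 2.32 RPKM were lowest, and each overlapped its neighbour. In TH the order ran from Per1 at 12.1 to Cry1 at 3.47 RPKM with every neighbour overlapping, and Npas2 stood below Clock, at 6.95 against 7.92 RPKM. At 3 weeks Npas2, at 10.9 RPKM, stood above Per1, at 7.84 RPKM.

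**Figure D1:**
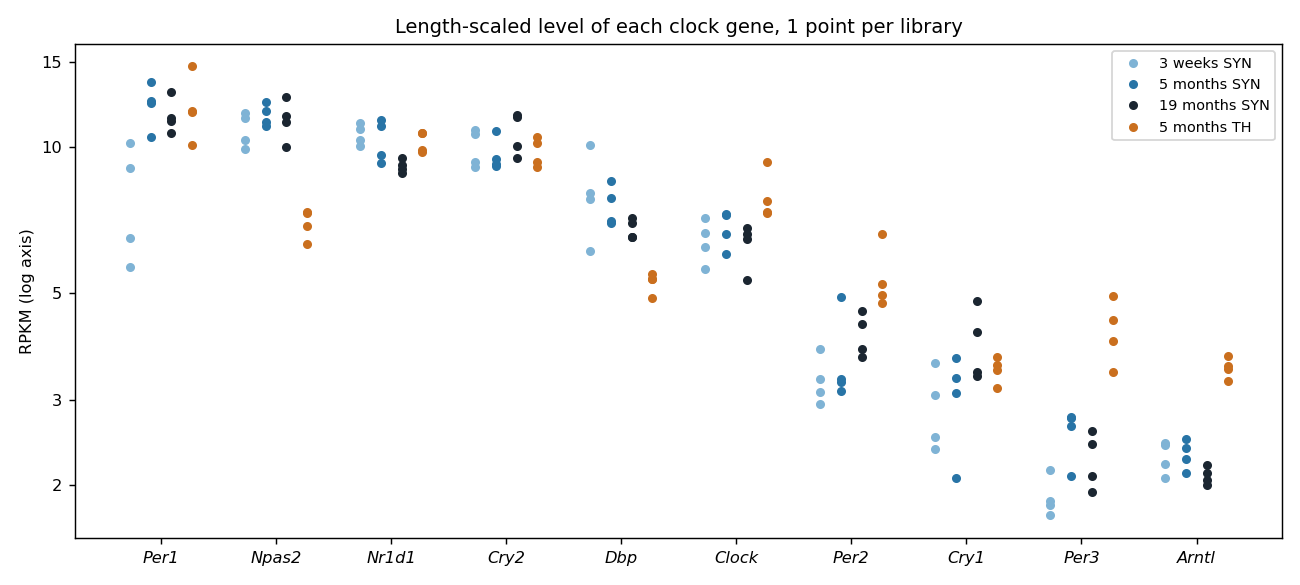
Length-scaled level (RPKM, log axis) of each clock gene, with 1 point per library and colours for the 4 groups. Genes are ordered by their mean in 5 months SYN, from Per1 at 12.2 to Arntl at 2.32 RPKM, and the TH points of Npas2 and Dbp lie below their SYN points.

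Setting the 5 months fractions side by side asks which clock transcripts are enriched in or depleted from the synaptic fraction. Npas2 and Dbp were higher in SYN, Arntl, Per2 and Per3 were lower, and Per1, Cry1, Cry2, Clock and Nr1d1 did not pass the test. In all, 2 clock genes rose and 3 fell, 5 of 10, where 50.1% of the 17374 genes tested were called (24.5% higher and 25.6% lower), so the count is at the background. With upper-quartile scaling 37.9% of the called genes were higher, against 48.8% here. The groups did not overlap for 2 of the 10 in the higher and 3 in the lower direction, against 21.3% and 26.6% of all genes (47.9% in all). The median log2 fold change of the 10 genes was -0.07, against -0.05 over all genes tested.

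**Figure D2:**
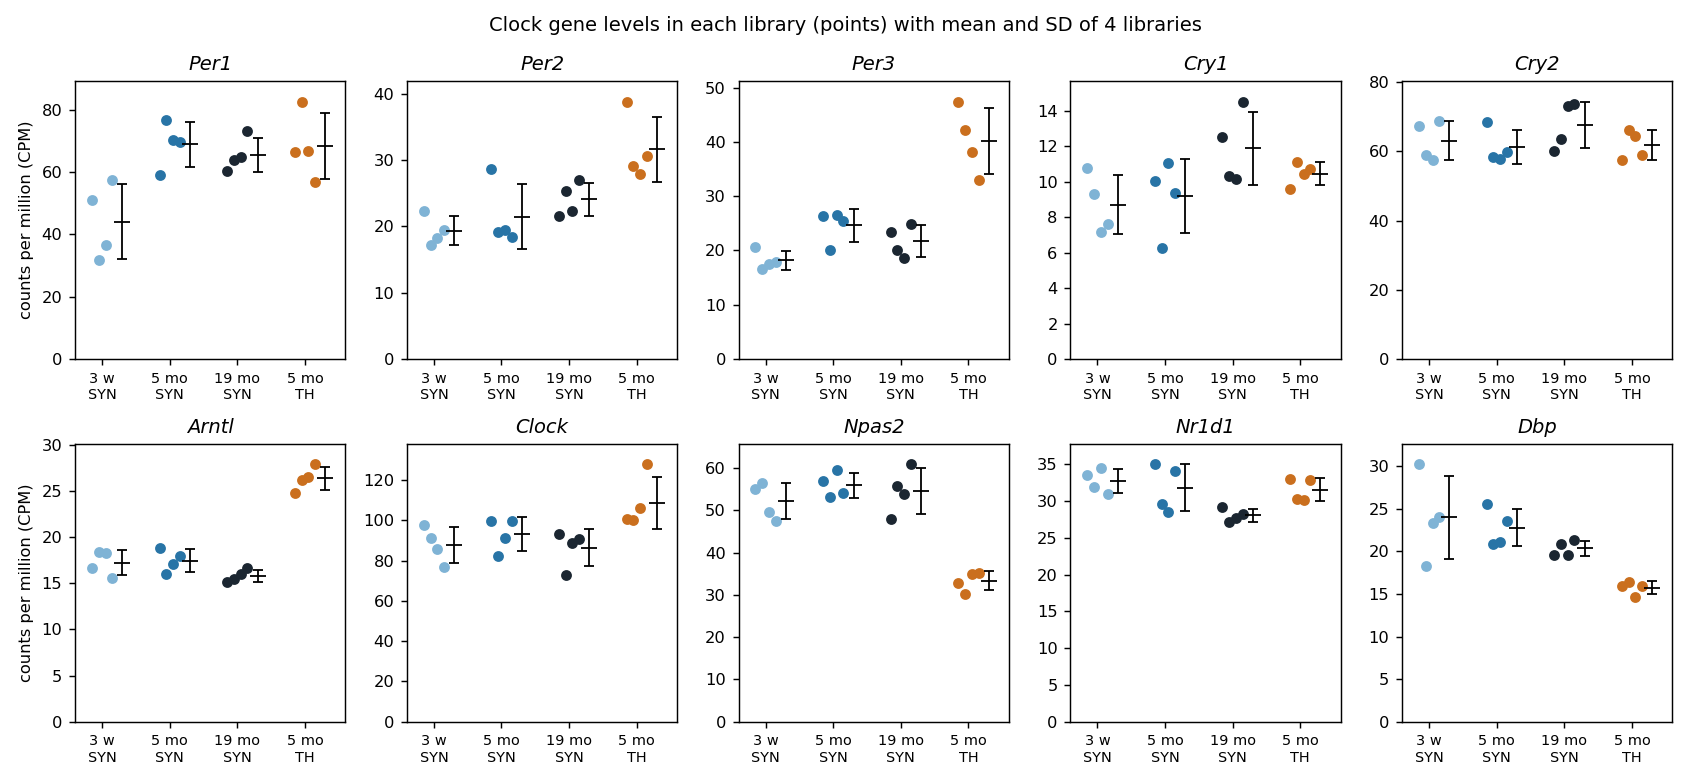
CPM of each clock gene in each library (points) with the mean and SD of 4 libraries (bars), for SYN at 3 weeks, 5 months and 19 months and TH at 5 months. Npas2 and Dbp lie higher in SYN than in TH without overlap, Per3 and Arntl lie lower, and all 4 libraries of Per1 at 3 weeks lie below those at 5 and 19 months.

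Among the activators, Npas2 (ENSMUSG00000026077, chr1:39193731-39363236 on GRCm38, plus strand), which encodes the forebrain paralogue of CLOCK, stood at 56.8, 53.1, 59.4 and 54.1 CPM in 5 months SYN and at 32.9, 30.3, 35.0 and 35.1 CPM in TH. No TH library reached the lowest SYN library. The log2 fold change was 0.78 (SE 0.0852, 95% interval 0.60 to 0.96), a 1.72-fold higher level, with an edgeR adjusted p of 2.77e-06. This log2 fold change lay at percentile 86.9 of all genes tested. Its paralogue Clock, at 99.9, 82.5, 91.0 and 99.6 CPM in SYN, had 101, 100, 106 and 128 CPM in the homogenate. The groups did not overlap, yet the log2 fold change of -0.18 (95% interval -0.38 to 0.01) missed the threshold, with an edgeR adjusted p of 0.11. It passed in 3 of 17 alternative fits. Among these it was at -0.24 with DESeq2's Wald test (adjusted p 0.0343) and at -0.33 with upper-quartile scaling in edgeR (adjusted p 0.00922). Arntl (ENSMUSG00000055116, chr7:113207465-113314126, plus strand), the common partner of both, was at 18.8, 16, 17.1 and 18.0 CPM in SYN and at 24.8, 26.2, 26.5 and 27.9 CPM in TH. Every SYN library was below every TH library, and the log2 fold change was -0.56 (SE 0.104, edgeR adjusted p 0.000413).

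Because CLOCK and NPAS2 are alternative partners of BMAL1, the counts of the 2 genes were set against each other within each library. The Npas2 to Clock ratio was 0.543 to 0.653 in 5 months SYN and 0.275 to 0.330 in TH, so the ranges were apart. It was 0.561 to 0.619 at 3 weeks and 0.513 to 0.761 at 19 months, ranges that overlapped with 5 months. Ratios of Dbp and Nr1d1 to Arntl were apart between the fractions as well. Arntl, their divisor, was itself called lower in SYN, and Nr1d1 by itself was not called. Dbp to Arntl was 1.24 to 1.36 in 5 months SYN and 0.550 to 0.645 in TH. Nr1d1 to Arntl was 1.67 to 1.89 in SYN and 1.13 to 1.33 in TH. These ratios are free of the scaling between libraries but carry gene length, so they compare libraries and not the 2 genes.

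**Figure D3:**
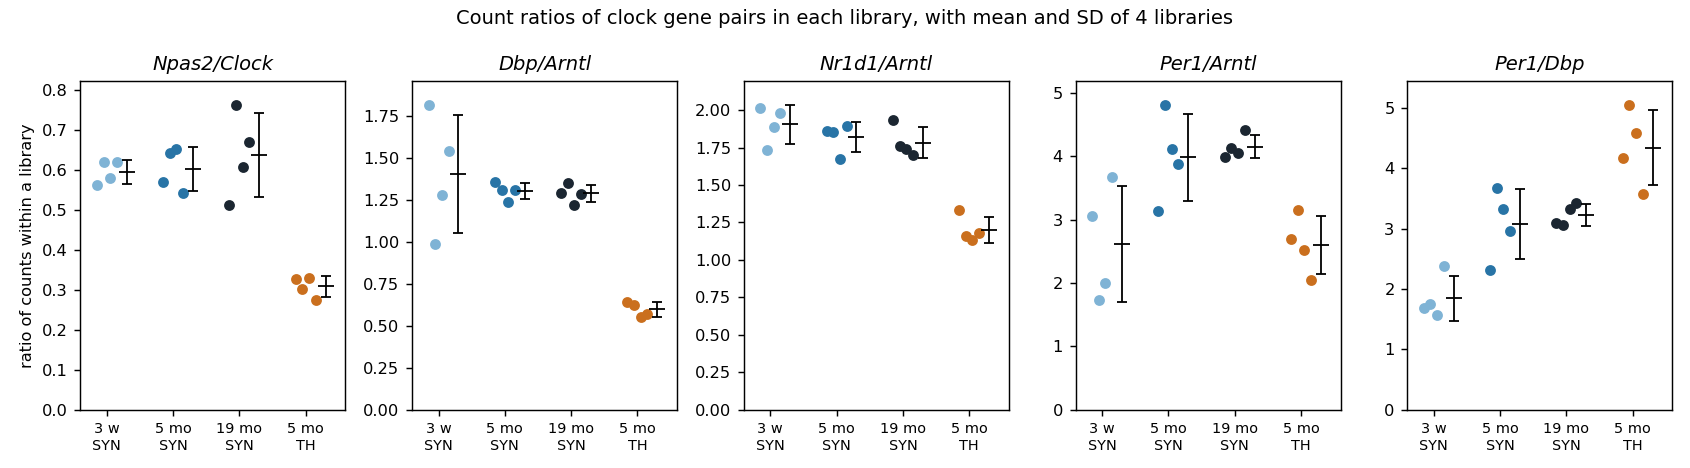
Ratios of raw counts of gene pairs within each library (points) with the mean and SD of 4 libraries. Npas2/Clock is 0.543 to 0.653 in 5 months SYN and 0.275 to 0.330 in TH, and Per1/Dbp at 3 weeks (1.56 to 2.39) lies lowest of the 4 groups by its mean.

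Of the Period genes, which encode the repressor proteins, Per3 (ENSMUSG00000028957, chr4:151003652-151044665, minus strand) fell most. It was at 26.4, 20.1, 26.6 and 25.5 CPM in 5 months SYN and at 47.4, 42.1, 38.2 and 33.0 CPM in TH. The groups did not overlap, and the log2 fold change was -0.67 (SE 0.128, edgeR adjusted p 0.000546). Per2 (ENSMUSG00000055866, chr1:91415982-91459324, minus strand) was at 28.7, 19.2, 19.5 and 18.4 CPM in SYN and at 38.8, 29.0, 27.9 and 30.6 CPM in TH. SYN replicate 1 reached above the lowest TH library, but TH replicate 1 was also the highest of its group, and SYN was the lower in all 4 pairs of the same number. The log2 fold change was -0.52 (SE 0.151, 95% interval -0.85 to -0.20, edgeR adjusted p 0.00956). Per1 was at 68.9 ± 7.35 CPM in 5 months SYN against 68.3 ± 10.6 CPM in TH (SD, n = 4), with a log2 fold change of 0.05 (95% interval -0.19 to 0.29, edgeR adjusted p 0.75). Whether the fold changes of the Period genes differ from each other was not tested. Under upper-quartile scaling the values of Per1, Cry2 and Nr1d1 were -0.09, -0.12 and -0.09. The Cryptochrome genes, whose products pair with PER proteins, did not pass the test. Cry1 had a log2 fold change of -0.15 (95% interval -0.53 to 0.22) and Cry2 of 0.02 (-0.16 to 0.20), with edgeR adjusted p of 0.495 and 0.869.

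Of the second loop and the output, Dbp (ENSMUSG00000059824, chr7:45705088-45710203, plus strand) was at 25.5, 20.9, 21.1 and 23.5 CPM in 5 months SYN and at 16, 16.4, 14.6 and 16 CPM in TH. The groups did not overlap, and Dbp was 1.48-fold higher in SYN (log2 0.57, SE 0.113, edgeR adjusted p 0.000733). Nr1d1 was at 31.8 ± 3.19 CPM in 5 months SYN against 31.6 ± 1.58 CPM in TH (SD, n = 4), with a log2 fold change of 0.05 (95% interval -0.16 to 0.26, edgeR adjusted p 0.714). Both genes share exons with a gene on the opposite strand, and whether the counting used strand is not stated. Dbp shares 539 exonic bases, 18.0% of its own, with Sphk2, whose own level was 9.04 CPM in the SYN libraries and 6.89 CPM in TH. Nr1d1 shares 263 exonic bases, 8.55% of its own, with Thra, whose own level was 521 CPM in the SYN libraries and 294 CPM in TH. Without strand, reads from the shared bases cannot be told apart. The lower values of Arntl, Per2 and Per3 stand beside those of the nuclear RNAs and vessel markers, which summed to 21339 to 25317 and 220 to 326 CPM in TH and to 1647 to 6957 and 31.6 to 76.5 CPM in 5 months SYN; at most 1 vessel marker was at 0 in a library, and the part of these RNAs in the result was not tested.

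**Figure D4:**
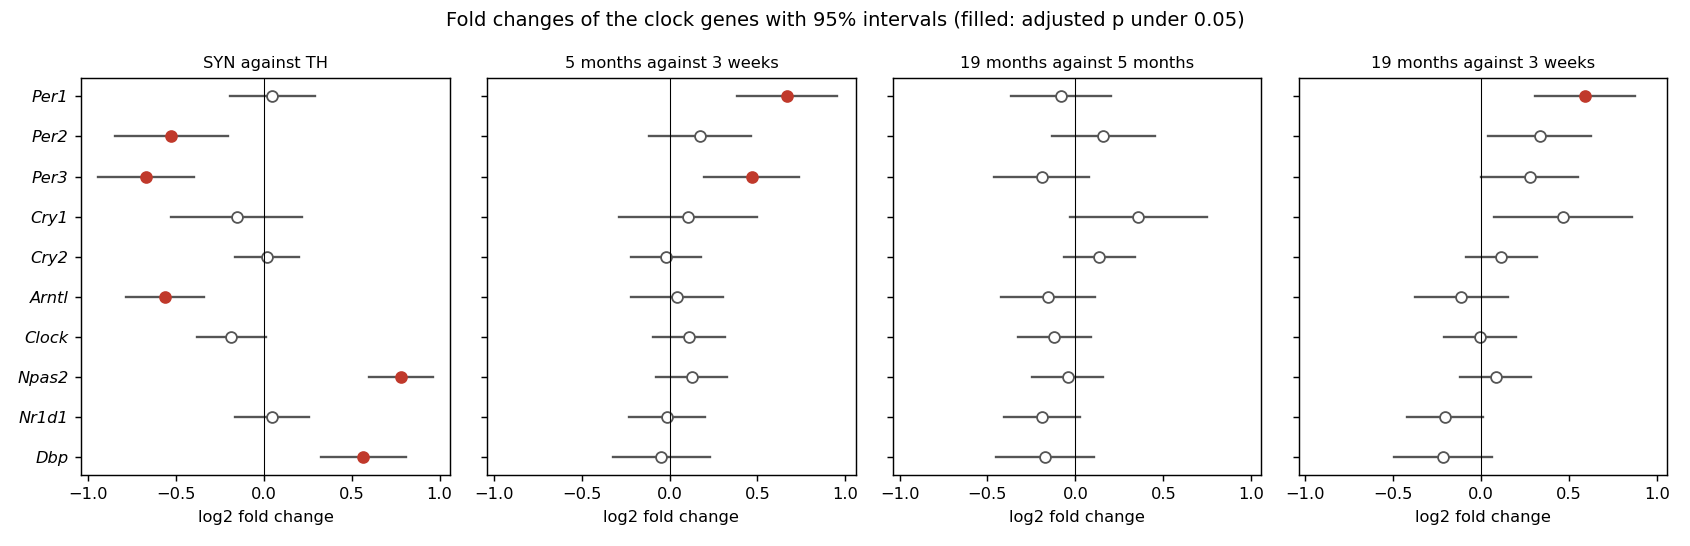
Log2 fold change of each clock gene with its 95% interval from edgeR, in the 4 comparisons, filled where the adjusted p was under 0.05. Npas2 (0.78) and Dbp (0.57) lie right of 0 and Per2, Per3 and Arntl left of it in SYN against TH, while across ages the filled points are Per1 and Per3 at 5 months and Per1 at 19 months against 3 weeks.

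Across ages, SYN libraries were compared in a single fit over 12 libraries, so the 3 contrasts share groups and are not independent. The question is how the clock transcripts of the SYN fraction differ between juvenile, adult and aged cortex. As the time of day of collection is not stated, differences by age and by time of collection cannot be told apart. From 3 weeks to 5 months Per1 and Per3 rose and no clock gene fell. That is 2 of 10 higher, where 13.3% of the 15344 genes tested were called higher and 11.3% lower, 24.6% in all. The groups did not overlap for 1 of the 10, Per1, against 10.3% of genes in the higher and 12.5% in the lower direction, 22.8% in all. The median log2 fold change of the 10 genes was 0.11, and that of all genes was near 0 at 9.69e-05.

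Per1 (ENSMUSG00000020893, chr11:69095217-69109960, plus strand) was at 50.9, 31.8, 36.5 and 57.4 CPM at 3 weeks and at 59.0, 76.8, 70.2 and 69.6 CPM at 5 months. The 3 weeks libraries spread widely, with replicates 2 and 3 low, yet none reached the lowest 5 months library. Per1 was 1.59-fold higher at 5 months (log2 0.67, SE 0.138, 95% interval 0.39 to 0.95, edgeR adjusted p 0.000921). At 19 months Per1 was at 60.4, 63.9, 64.8 and 73.3 CPM, again above every 3 weeks library. The log2 fold change from 3 weeks to 19 months was 0.59 (SE 0.138, edgeR adjusted p 0.00355), and that from 5 to 19 months was -0.08 (95% interval -0.36 to 0.20). Among the ages, 3 weeks SYN had the lowest mean Per1 level.

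Per3 was at 20.7, 16.7, 17.5 and 17.9 CPM at 3 weeks, at 26.4, 20.1, 26.6 and 25.5 CPM at 5 months and at 23.4, 20.1, 18.6 and 24.9 CPM at 19 months. Replicate 1 at 3 weeks lay just above replicate 2 at 5 months, so those groups overlap. The log2 fold change from 3 weeks to 5 months was 0.47 (SE 0.132, 95% interval 0.20 to 0.74, edgeR adjusted p 0.0103). From 3 weeks to 19 months it was 0.27 with an edgeR adjusted p of 0.158, which missed the threshold. Per2 was at 19.3 ± 2.21, 21.4 ± 4.86 and 24.1 ± 2.48 CPM at the 3 ages (SD, n = 4). Its log2 fold change was 0.17 at 5 months (edgeR adjusted p 0.407) and 0.33 at 19 months (edgeR adjusted p 0.103), both against 3 weeks. Ratios within a library set Per1 against other clock genes. Per1 to Dbp was 1.56 to 2.39 at 3 weeks, 2.31 to 3.68 at 5 months and 3.06 to 3.43 at 19 months, and Per1 to Arntl was 1.73 to 3.68, 3.14 to 4.80 and 3.99 to 4.41. At 19 months both ranges lay above those of 3 weeks, while at 5 months both overlapped those of 3 weeks. Per1 to Per2 was 1.84 to 2.95 at 3 weeks and 2.53 to 2.90 at 19 months. Npas2 to Per1 was 0.828 to 1.77 at 3 weeks and 0.793 to 0.871 at 19 months. The latter pairs of genes thus overlapped between these ages.

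None of the 3 activator genes passed the test between ages. Arntl was at 17.2 ± 1.35, 17.5 ± 1.21 and 15.8 ± 0.654 CPM at 3 weeks, 5 months and 19 months, Clock at 87.8 ± 8.91, 93.2 ± 8.24 and 86.5 ± 9.17 CPM, and Npas2 at 52.1 ± 4.23, 55.9 ± 2.85 and 54.6 ± 5.36 CPM (SD, n = 4). Their log2 fold changes from 3 weeks to 5 months were 0.04, 0.11 and 0.13, with 95% intervals of -0.22 to 0.30, -0.09 to 0.32 and -0.07 to 0.32. For that step, intervals of this width leave room for changes of up to about 0.32 on the log2 scale. The interval of Arntl reached further in the other comparisons, to -0.38 at 19 months against 3 weeks and to -0.42 against 5 months. Cry2 was at 63.1 ± 5.62, 61.1 ± 4.92 and 67.6 ± 6.76 CPM, and Dbp at 24.0 ± 4.90, 22.7 ± 2.18 and 20.3 ± 0.93 CPM. Cry1, at 8.71 ± 1.65, 9.18 ± 2.08 and 11.9 ± 2.06 CPM, was the least abundant by count. Its log2 fold change at 19 months was 0.46 against 3 weeks (95% interval 0.07 to 0.85, edgeR adjusted p 0.0871) and 0.36 against 5 months (edgeR adjusted p 0.413). Nr1d1 was at 33.5, 31.9, 34.5 and 30.9 CPM at 3 weeks and at 29.2, 27.2, 27.8 and 28.3 CPM at 19 months. These groups did not overlap, but the log2 fold change of -0.21 (95% interval -0.42 to 0.01) missed the threshold, with an edgeR adjusted p of 0.188.

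From 5 to 19 months, the step from adult to aged synaptosomes, none of the 10 clock genes passed the edgeR test, none had an unadjusted p under 0.05 and DESeq2 called 0 as well. Of all 15344 genes tested, 0.3% were called (0.13% higher and 0.169% lower), a count of 46 genes that ran from 0 without 19 months SYN replicate 3 to 284 without 3 weeks SYN replicate 1 and was 312 with DESeq2. The groups overlapped for all 10, where 3.56% of genes lay apart in the higher and 4.6% in the lower direction, 8.16% in all. The log2 fold changes ran from -0.19 for Per3 to 0.36 for Cry1, with a median of -0.10 against -0.00 over all genes. The interval of Cry1, -0.03 to 0.75, was the widest among the 10. From 3 weeks to 19 months 1 clock gene, Per1, was called, higher, where 10% of genes were called higher and 9.44% lower, 19.4% in all. The groups did not overlap for Per1, higher, and Nr1d1, lower, against 10.7% and 12.2% of genes, 22.9% in all. Leaving out 3 weeks SYN replicate 1 added Per2, at a log2 fold change of 0.42 (edgeR adjusted p 0.0443), and Cry1, at 0.59 (edgeR adjusted p 0.0374), so those 2 missing calls rest on that library. With any 1 replicate left out, 2110 to 3173 of all genes were called from 3 weeks to 19 months, against 2982 in the main fit.

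Values of other gene groups at the same ages are given beside the rise of Per1. Of 15 genes induced by neuronal activity, 6 were higher at 5 months than at 3 weeks and 0 lower, where 13.3% and 11.3% of all genes were, with a median log2 fold change of 0.31. At 19 months against 3 weeks, where Per1 was also called higher, 3 of the 15 were higher and 1 lower, where 10% and 9.44% of all genes were, and the median was -0.09. Arc, an activity-induced gene with RNA in dendrites, was at 285, 239, 239 and 588 CPM at 3 weeks and at 696, 637, 657 and 534 CPM at 5 months, a log2 fold change of 0.93 (edgeR adjusted p 0.0484). As with Per1, replicate 4 was the highest of the 3 weeks libraries. Fos was not called, at a log2 fold change of 0.20 (edgeR adjusted p 0.594). The summed level of the 15 genes was 619 to 1153 CPM at 3 weeks, 1036 to 1278 CPM at 5 months and 821 to 1182 CPM at 19 months. Of 11 glucocorticoid-induced genes, 1 was higher and 3 lower at 5 months, with a median of -0.27. Fkbp5, a direct target of the glucocorticoid receptor, was at 21.5 ± 5.81 and 18.9 ± 2.15 CPM at 3 weeks and 5 months (SD, n = 4; edgeR adjusted p 0.525). Marker RNAs of other cell types also differed between these ages. All 10 myelin markers were lower at 5 months, summing to 7484 to 10585 CPM at 3 weeks and 2310 to 2859 CPM at 5 months, with none at 0. Nuclear RNAs were higher for 6 of 9, summing to 905 to 1222 CPM at 3 weeks and 1647 to 6957 CPM at 5 months, and microglia markers for 4 of 10, summing to 161 to 240 and 224 to 269 CPM. The part of these groups in the rise of Per1 and Per3 was not tested.

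Other genes of the clock were taken from a list of 28 companions: the paralogues and second-loop receptors, the PAR bZIP output factors, the kinases that phosphorylate PER, and parts of the protein degradation machinery. All 28 were tested in each comparison. Against TH, 4 were higher and 5 lower in SYN, where 24.5% and 25.6% of all genes were, with a median log2 fold change of 0.01. Nr1d2, which encodes Rev-erb beta, was at 27.4, 25.7, 26.5 and 26.4 CPM in 5 months SYN and at 38.0, 36.6, 37.4 and 45.0 CPM in TH, a log2 fold change of -0.53 (edgeR adjusted p 0.000284) with no overlap. Its paralogue Nr1d1 had not passed. Tef, which encodes a PAR bZIP activator of the DBP family, was higher in SYN at 128 ± 5.27 against 95.3 ± 5.38 CPM (SD, n = 4; log2 0.46, edgeR adjusted p 8.22e-05). Hlf, the third member of that family, was at 88.8 ± 2.65 and 83.3 ± 0.763 CPM and was not called (log2 0.13, edgeR adjusted p 0.134). Rorb, a nuclear receptor that activates Arntl and marks cortical layer neurons, was higher (log2 0.59, edgeR adjusted p 1.84e-05). Arntl2, the paralogue of Arntl, was at 0.569 ± 0.501 CPM in 5 months SYN against 6.60 ± 0.806 CPM in TH (SD, n = 4), a log2 fold change of -3.50 (edgeR adjusted p 6.41e-05) that rests on few counts in SYN. The casein kinase 2 subunit Csnk2a1 (log2 -0.83, edgeR adjusted p 0.000235) and the AMP-activated kinase subunit Prkaa2 (log2 -0.70, edgeR adjusted p 0.000753) were lower. Bhlhe40, Bhlhe41, Ciart, Csnk1d and Csnk1e did not pass, at log2 fold changes of -0.11, 0.19, -0.22, -0.08 and -0.03 (edgeR adjusted p 0.303, 0.155, 0.648, 0.508 and 0.862).

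**Figure D5:**
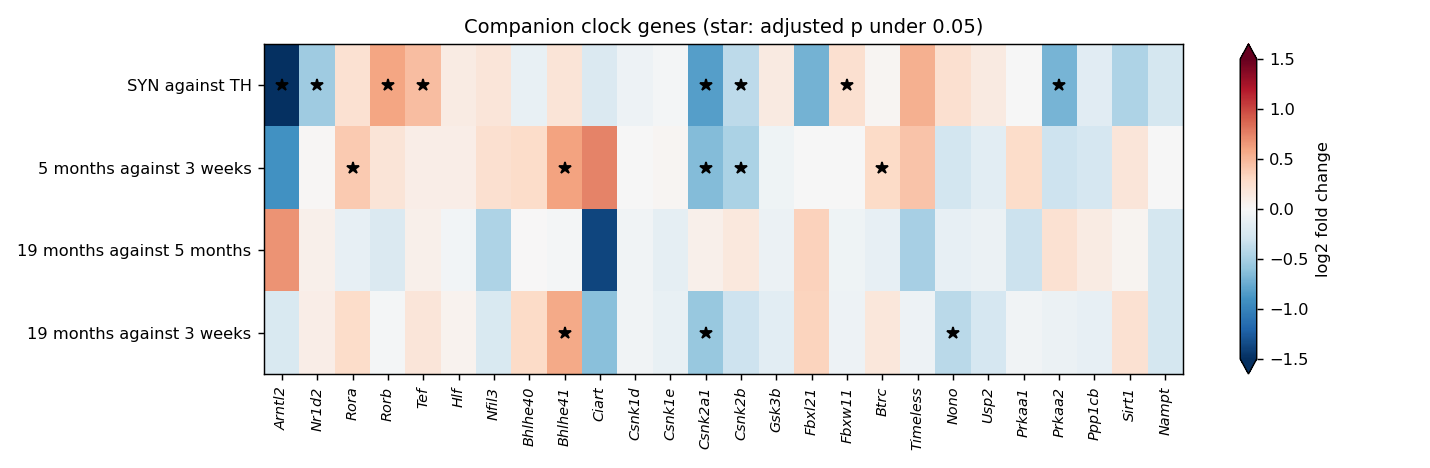
Log2 fold changes (colour, limited to the range -1.5 to 1.5) of companion clock genes in the 4 comparisons, with a star where the edgeR adjusted p was under 0.05. Nr1d2 (-0.53) is lower and Tef (0.46) higher in SYN against TH, Bhlhe41 is higher at 5 and 19 months than at 3 weeks, and no star stands in the comparison of 19 with 5 months.

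From 3 weeks to 5 months 5 of the 28 companions rose and 2 fell, where 13.3% and 11.3% of all genes did, so the count of calls is at the background, with a median log2 fold change of 0.06. Bhlhe41, which encodes the E-box repressor DEC2, rose from 16.8 ± 2.99 to 25.0 ± 2.21 CPM (SD, n = 4; log2 0.60, edgeR adjusted p 0.00131), while its paralogue Bhlhe40 missed the threshold (log2 0.28, edgeR adjusted p 0.0513). Rora, a receptor that competes with Rev-erb at Arntl, rose by a log2 fold change of 0.39 (edgeR adjusted p 0.00836), and Btrc, a ligase part that targets PER, by 0.29 (edgeR adjusted p 0.0292). The casein kinase 2 subunits Csnk2a1 and Csnk2b fell by 0.65 and 0.47 on the log2 scale (edgeR adjusted p 0.00363 and 0.0111). The PER kinases Csnk1d and Csnk1e did not pass, at log2 fold changes of -0.00 and 0.03 (edgeR adjusted p 0.988 and 0.862). Tef and Hlf were both at 0.10 (edgeR adjusted p 0.449 and 0.483) and Nr1d2 at 0.02 (edgeR adjusted p 0.921). Ciart was at 0.75 (edgeR adjusted p 0.201).

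At 19 months against 3 weeks 2 of the 28 companions were higher and 2 lower, where 10% and 9.44% of all genes were, with a median of -0.06. Bhlhe41 (log2 0.57, edgeR adjusted p 0.00276) was higher, as at 5 months. Csnk2a1 (-0.57, edgeR adjusted p 0.0119) and the PER-associated RNA-binding protein gene Nono (-0.40, edgeR adjusted p 0.00949) were lower. Without 3 weeks SYN replicate 1, 8 companions were called. With any 1 replicate left out, 3 to 8 companions and 2110 to 3173 of all genes were called, against 2982 of all genes in the main fit. Nr1d2, Tef, Hlf, Bhlhe40, Ciart, Csnk1d and Csnk1e did not pass, at log2 fold changes of 0.10, 0.18, 0.05, 0.29, -0.63, -0.06 and -0.11. From 5 to 19 months edgeR and DESeq2 each called 0 of the 28, and 3 had an unadjusted p under 0.05 in edgeR. Nr1d2, Tef, Hlf, Bhlhe40, Bhlhe41, Csnk1d and Csnk1e were at 0.08, 0.08, -0.05, 0.01, -0.03, -0.05 and -0.14. The largest log2 fold change there was that of Ciart, which encodes the repressor CHRONO, at -1.38 (edgeR adjusted p 0.146) and a level of only 2.55 ± 1.29 and 0.997 ± 0.514 CPM (SD, n = 4).

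Levels of the clock genes were also compared across the 12 SYN libraries, which share preparation and differ in age and depth. Pearson's r of log2 CPM, given as a description only, ran over the 45 pairs from -0.493 for Per1 with Nr1d1 to 0.742 for Arntl with Nr1d1, with a median of 0.232, and 32 pairs were above 0. Per1 and Arntl, which encode opposite limbs of the loop, had r = -0.489 over 12 libraries, and -0.721 for deviations from the age means. That was the lowest deviation value of the 45 pairs. Per2, Per3, Cry1 and Cry2, of the same limb as Per1, had 0.236, 0.204, 0.369 and 0.0811 with Arntl for the deviations. Per1 and Per3 had r = 0.642, which was 0.161 once the age means were taken out. Per3 and Cry1 had 0.874 for the deviations, the highest of the 45 pairs. The genes most like each clock gene over these libraries were sought among the 9224 genes that averaged 5 CPM or more. Per1 was closest to Rtn2 (r = 0.951), the activity-induced receptor gene Nr4a3 (0.936) and Ss18l1 (0.932). Nr4a3 was at 62.4, 42.4, 47.0 and 60.8 CPM at 3 weeks and at 93.2, 101, 90.6 and 81.8 CPM at 5 months, with replicates 2 and 3 low at 3 weeks as for Per1. Per3 was closest to Rabep1 (0.922), Dis3l (0.906) and Nop14 (0.906). Npas2 was closest to Kbtbd4 (0.807), Cfap54 (0.798) and Arhgap35 (0.796), and Dbp to Bzrap1 (0.901), Phactr3 (0.885) and Fam81a (0.882). With 12 libraries and 9224 candidates, high values arise among the closest genes of any gene.

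The authors' deposited splicing tables were searched for the clock genes, since the study is about isoforms. In the authors' deposited LeafCutter tables, which test clusters of introns that share an end, 8 clusters of 5 clock genes were listed, and 5 to 6 clusters of Clock, Npas2 and Per3 were tested. None was called at an adjusted p under 0.05, where 6.61% of all clusters were called from 3 weeks to 5 months, 0.768% from 5 to 19 months and 4.81% from 3 weeks to 19 months. In the authors' deposited DIEGO tables, which test single junctions, 131 to 132 junctions of 9 clock genes, all but Per3, were tested, and 0 were called against 1.48%, 0.0% and 0.69% of all junctions. At an unadjusted p under 0.05 there were 2 clusters and 1 junction from 3 weeks to 5 months, and 0 in the other comparisons. The introns below were chosen after their values were seen. In Clock, the first intron at chr5:76303503-76304367 made up 21.2% of its cluster at 3 weeks and 6.92% at 5 months in the authors' deposited table (unadjusted p 0.038, adjusted p 0.181). This intron and its alternative, chr5:76303503-76304654, join 2 different first exons to the same acceptor. A skipping intron of Clock, chr5:76231549-76236281, was used at 26.5% at 3 weeks and 15.3% at 5 months in the authors' deposited table (adjusted p 0.144). It holds 2 annotated exon intervals. The introns chr5:76231549-76235765 and chr5:76235856-76236281 of the same cluster hold 0. Both intervals thus overlap the stretch between those introns and are not shown to be separate exons. In Per3 the authors' deposited table gave 7.43% at 3 weeks and 39.8% at 5 months for the acceptor used by chr4:151012930-151013541, which lies 3 bases from its alternative (adjusted p 0.359). Of the companions, 1 cluster of Hlf was called from 3 weeks to 5 months in the authors' deposited table (adjusted p 0.0186), where use of chr11:90340975-90345757 went from 90.1% to 98.6%. At 19 months against 3 weeks its adjusted p was 0.0554 in the authors' deposited table. The authors' deposited DIEGO tables called 1 junction each of Rora and Fbxw11 from 3 weeks to 5 months (q 0.0464 for both) and 1 of Btrc from 3 weeks to 19 months (q 0.0489).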

How the data were processed

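Mouse cortical RNA depleted of ribosomal RNA was sequenced as paired ends in 16 libraries, 4 biological replicates per group per the series' design text. Where nothing says how the replicates were taken, p-values measure the spread between these samples. The authors deposited integer read counts per gene, on build GRCm38.p6, made with bcl2fastq 2.20.0.422, cutadapt 1.18, Trimmomatic 0.38 and featureCounts of Subread per the submitters' processing notes. Which aligner, annotation release and strand setting they used is not given in the sources used here. In the authors' deposited LeafCutter tables, p-values come per cluster and intron usage as a fraction, printed as a percent. These tables name the ages young, adult and old, read as 3 weeks, 5 months and 19 months. The authors' deposited DIEGO tables hold p-values, q-values and a change score.

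Genes were filtered with filterByExpr, scaled by TMM and tested with the quasi-likelihood F test of edgeR 4.0.16 (limma 3.58.1, R 4.3.3), with Benjamini-Hochberg adjustment over all genes tested and a threshold of 0.05. SYN was set against TH on 8 libraries, and the ages on 12 libraries in 1 fit. CPM in the text are TMM-scaled over 16 libraries, and RPKM are CPM per kilobase of the deposited gene length. Correlations used log2 CPM with a prior count of 2. DESeq2 1.42.0, other scalings, filters, fits and left-out replicates were alternatives. Python 3.11.15 with pandas 2.3.3 handled the splicing tables and promoters. Gene symbols, of which 116 occur more than once, came from the deposited table, with coordinates of GENCODE on GRCm38. Itgam, a microglia marker with a repeated symbol, was taken from its entry with more counts. No column lacked a sample (0 columns). Depth was 10.6 to 21.7 megacounts. In the 5 months columns each replicate number goes with a further number that SYN and TH share, and TH was kept back before enrichment per the labels, so SYN and TH were taken as 4 pairs; same-numbered libraries correlated in their deviations at 0.0155 to 0.137. The fit without this block stayed the main one. Numbers were not taken as pairs between ages. Within groups no 2 libraries agreed within sampling noise.

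The test was tested on simulated data. It recovered 28.7% of changes of 0.5 and 66.7% of changes of 1 on the log2 scale for 5 months against 3 weeks (15344 genes), and 18.3% and 50.7% for SYN against TH (17374 genes). Each of 3 simulations per comparison changed only 200 genes, with at most 11 and 5 false calls. In the data 24.6% and 50.1% of genes were called, so the adjusted threshold was less strict there. The recovered shares thus do not give how often the reported tests find such changes. The clock genes, the other lists and the tests were chosen with earlier results of these data known. Named genes are all 10 clock genes, up to 6 called companions per comparison with the smallest adjusted p, 8 companions always given (Nr1d2, Tef, Hlf, Ciart, Bhlhe40, Bhlhe41, Csnk1d, Csnk1e), the 3 genes most correlated with each clock gene, and Fkbp5, Sgk1, Fos, Arc, Malat1, Camk2a and Pecam1. Thra, Sphk2 and the splice sites were named after their values were seen. A few genes that the rule would name are not reported here, though counts of lists include them.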

Additional observations from a re-analysis of the deposited data

Results flagged for a closer look

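Of 48 sets of 4 libraries looked at, 40 of them of clock genes, 3 held a library far from the other 3 by Dixon's criterion, and chance gives such a library in about 1 in 20 groups. Per2 in 5 months SYN replicate 1 stood at 28.7 CPM, against 18.4 to 19.5 CPM in the other replicates of that group. This is the library that overlaps TH, and TH replicate 1, its partner by number, was the highest TH library at 38.8 CPM. Malat1 in 5 months SYN replicate 4 stood at 4796 CPM, against 942 to 1449 CPM. Mitochondrial ribosomal RNA took 52.3% of counts in 19 months SYN replicate 1, against 32.9 to 33.6%.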

How the results depend on the processing

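Over 830 values of clock genes under alternatives, 792 kept their direction and their side of the threshold, 33 changed sign without a call in either fit, 5 gained a call and 0 lost one. The 8 called results were called in all of their 151 alternatives. Under DESeq2 size factors, DESeq2's Wald test and upper-quartile scaling, SYN against TH changed sign for Per1 (-0.0091, -0.0091 and -0.091), Cry2 (-0.038, -0.038 and -0.12) and Nr1d1 (-0.0095, -0.0087 and -0.094). Upper-quartile scaling, which moved the median of all genes by -0.141, also turned Nr1d1 at 5 months against 3 weeks to 0.0014 and Clock at 19 months against 3 weeks to 0.015, and called 37.9% of the genes that changed between SYN and TH as higher, against 48.8%. Without both 5 months SYN replicate 4 and 19 months SYN replicate 1, Npas2 at 19 against 5 months was 0.0061. Leaving out 1 replicate gave -0.035 to 0.16 for Per1, -0.041 to 0.058 for Cry2 and -0.0067 to 0.090 for Nr1d1 in SYN against TH. For 5 months against 3 weeks it gave -0.058 to 0.028 for Nr1d1, -0.073 to 0.024 for Cry2, -0.16 to 0.084 for Dbp and -0.0024 to 0.081 for Arntl. It gave -0.059 to 0.065 for Clock at 19 months against 3 weeks and -0.10 to 0.017 for Npas2 at 19 against 5 months.

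The count of all genes called from 5 to 19 months, 46, was 292 with no filter, 312 with DESeq2's Wald test, 28 with all 16 libraries in the fit, 5 without both libraries named and 320 on only the 8 libraries compared, and 0 (without 19 months SYN replicate 3) to 284 (without 3 weeks SYN replicate 1) with 1 replicate left out; the cause was not tested. No clock gene gained a call there. At 19 months against 3 weeks 1 to 3 clock genes and 3 to 8 companions were called with 1 replicate left out, the highest counts without 3 weeks SYN replicate 1. Over the same fits the count of all genes called also moved, from 2110 to 3173, against 2982 of 15344 in the main fit. With the replicate number as a block, clock gene calls stayed at 5, 2, 0 and 1 in SYN against TH, 5 months against 3 weeks, 19 against 5 months and 19 months against 3 weeks, and 264 genes were called from 5 to 19 months. For SYN against TH, whose libraries were taken as pairs, the block changed no clock gene call, and Per2 was at -0.54. Between ages, libraries of the same number correlated in their deviations at -0.00936 to 0.133, so the numbers were not taken as pairs. Depth limits Cry1 most, at 6.25 to 14.5 CPM.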

Other observations

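Glucocorticoid-induced genes were read as values beside Per1, which is one of them by background. Sgk1, a kinase gene induced by glucocorticoids, was at 22.4 ± 3.40 CPM in 5 months SYN and 36.5 ± 5.54 CPM in TH (SD, n = 4), a log2 fold change of -0.67 (edgeR adjusted p 0.000676). In SYN it was at 21.6 ± 2.11 CPM at 3 weeks and 32.1 ± 5.41 CPM at 19 months, a log2 fold change of 0.59 (edgeR adjusted p 0.0022). Arc was higher in SYN than in TH, at 631 ± 69.4 against 182 ± 17.9 CPM (SD, n = 4; log2 1.83, edgeR adjusted p 2.48e-09), where Per1 did not pass the test. Among the neighbours over the 12 SYN libraries, Per2 was closest to Wipf3 (0.875), Dapp1 (0.866) and Mettl6 (0.859), and Cry1 to Kdm7a (0.855), Zbtb40 (0.847) and Akr1b10 (0.833). Cry2 was closest to Pomgnt1 (0.881), Znrf1 (0.869) and Inip (0.821), and Arntl to Ufl1 (0.863), Cep97 (0.845) and Btbd10 (0.805). Clock was closest to Dnah9 (0.883), D3Ertd254e (0.83) and Zfp451 (0.825), and Nr1d1 to Tarsl2 (0.899) and Zfp800 (0.897). These are Pearson's r of log2 CPM, given as a description.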
